A study of Mus musculus with 13 samples.

Results

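The transcripts described here come from 8 mouse genes of early B-cell development, Vpreb1, Igll1, Vpreb3, Rag1, Rag2, Pax5, Cd79a and Cd79b, out of 48709 genes counted in each library. They were found by matching the deposited Ensembl identifiers to GENCODE mouse gene names, and all 8 passed the filter on low counts. They were chosen because transcripts of bone marrow cells had been seen to differ between these samples, so their levels and fold changes are given as a description and nothing is read from a test on them. Vpreb1, Igll1, Vpreb3, Rag1 and Rag2 are treated below as precursor-restricted, while Pax5, Cd79a and Cd79b are also used by mature B cells.

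The 13 libraries were made from motoneurons of the lumbar spinal cord, 1 library per mouse from a pool of 500 cells, cut out by laser from cresyl violet-stained frozen sections. All mice carried the SOD1-G93A transgene, a mutant human SOD1 that causes a motoneuron disease in mice, and were killed at 65 days, so every comparison is between transgenic mice. AAV-miR SOD1 mice (n = 4) had received, into the cerebral ventricles on postnatal day 2, an adeno-associated virus from which astrocytes make an artificial microRNA against human SOD1. AAV-miR ctrl mice (n = 5) had received the control virus, without that microRNA, on the same day, and non-injected littermates (n = 4) no virus. Per the labels' protocols, the lumbar cord was embedded and frozen together with the vertebrae, which hold bone marrow in their cavities. The labels name no B cells, and the captured cells are labelled motoneurons.

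In the marrow, B cells are made from progenitors that assemble an immunoglobulin heavy chain gene by V(D)J recombination, for which RAG1 and RAG2 form the cutting enzyme. The new heavy chain is first paired with a surrogate light chain made of the VPREB and lambda5 (Igll1) proteins and is carried to the membrane with CD79A and CD79B as the pre-B-cell receptor, whose signal drives division. The surrogate light chain and RAG genes are then silenced as the cell matures, while PAX5, the factor that holds cells in the B lineage, and the CD79 pair remain on in mature B cells.

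Levels are given as CPM, the count of a gene per megacount of reads assigned to genes, with library sizes scaled by TMM, and log2 CPM uses a prior count of 2. Between 13.9 and 37.4 megacounts were assigned to genes per library, and the Spearman correlation of log2 CPM within groups was 0.921 to 0.966. The 7 motoneuron markers examined were detected in all libraries, with summed levels of 1376 to 5269 CPM. Column headers inside 2 tables contradicted their labels: the header of AAV-miR ctrl replicate 3 read SOD, and that of non-injected replicate 3 read control microRNA. Groups follow the labels here, and values with both libraries exchanged are given where a result rests on them. Replicate numbers 5 and 6 occur among controls alone, so number and group cannot be told apart there. Libraries so numbered held 29.7 to 37.4 megacounts in genes, and the others 13.9 to 23.1. Reads aligned to several places were 42.3% to 46.6% of the deposited total in the former and 49.9% to 56.8% in the others. Depth and this share thus went with the number. Transcripts of the human transgene were not analysed here.

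Several of these genes lie near each other or share sequence with a neighbour, which bears on how their reads were counted. Vpreb1 (ENSMUSG00000059305, GRCm38 chr16:16868403-16870843, minus strand) lies 4417 bp from Igll1 (ENSMUSG00000075370, chr16:16860671-16863985, minus strand). The exons of Vpreb1 overlap those of Top3b on the other strand in GENCODE M21. Vpreb1 also has a close copy, Vpreb2 (ENSMUSG00000059280), and the open reading frames of both, 429 bases each, differed at 9 bases and were 97.9% identical. The longest identical run of their transcripts was 196 bases, so that a read wholly inside it could align to both places. Bases 268 to 387 of the open reading frames are shown because they hold 6 of the 9 differences, which are the bases in capitals.
Vpreb1: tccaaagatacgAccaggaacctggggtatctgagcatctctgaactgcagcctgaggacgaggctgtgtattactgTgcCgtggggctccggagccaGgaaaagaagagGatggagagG
Vpreb2: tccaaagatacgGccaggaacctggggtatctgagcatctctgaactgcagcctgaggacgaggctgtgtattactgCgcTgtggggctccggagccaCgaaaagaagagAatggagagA
Between 42.3% and 56.8% of each library's deposited total was set aside as aligned to more than one place, and the level of Vpreb1 leaves this part out. That total records 0 unaligned reads, so the value is not a share of all reads. Rag1 (ENSMUSG00000061311, chr2:101638282-101649501, minus strand) and Rag2 (ENSMUSG00000032864, chr2:101624718-101632529, plus strand) lie 5752 bp apart, and B230118H07Rik overlaps exons of both. Pax5 (ENSMUSG00000014030, chr4:44524757-44710487, minus strand) shares exonic bases with Gm12462 and 5730488B01Rik on the plus strand. Vpreb3 (ENSMUSG00000000903, chr10:75943057-75949657, plus strand), Cd79a (ENSMUSG00000003379, chr7:24897381-24902197, plus strand) and Cd79b (ENSMUSG00000040592, chr11:106311341-106314762, minus strand) share no exonic bases with another gene in this annotation. Whether the counting used strand is not given in the sources used here.

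Promoters were searched for 3 sequences that factors of the B lineage are known to bind. They were the E-box CAGGTG of the E2A proteins, the octamer ATTTGCAT of the OCT proteins and the EBF1 sequence CCCNNGGG. The 250 bases before each gene's start in RefSeq (GRCm38.p6) were read on both strands for the 7 of 8 genes with an entry, which leaves out Cd79b. The E-box was found in 4 of 7, Cd79a, Igll1, Rag1 and Vpreb1, while 17.2% of all 32817 promoters of the same length held it. The octamer was found in Vpreb3 (1.6% of all promoters) and the EBF1 sequence in Igll1 (11.8%). None of the 3 sequences was found for Rag2 or Pax5. Whether these sequences bear on the levels described below was not tested. The windows are shown with the matched letters in capitals, 5′ to 3′ on the gene's own strand.
Vpreb1 E-box, chr16:16869326-16869355, minus strand: atgacgttccagCAGGTGcttcctcccaga
Igll1 E-box, read on the opposite strand, chr16:16863986-16864005, minus strand: gctacacagatcCACCTGca
Igll1 EBF1 sequence, chr16:16864198-16864227, minus strand: tgctccacagaCCCAGGGGccctcagggac
Rag1 E-box, chr2:101649650-101649679, minus strand: ttcctgaagagcCAGGTGccagctggagct
Cd79a E-box, chr7:24897331-24897360, plus strand: ttgtggccagccCAGGTGcagggcagttcc
Vpreb3 octamer, chr10:75948244-75948273, plus strand: tcagtgggctgATTTGCATgctctattgtg
These matches describe the letters in the windows and do not show that a factor was bound. The Vpreb1 and Vpreb3 windows lie inside the GENCODE gene bounds, since RefSeq places the starts of these genes further in.

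All 8 transcripts were detected in all 13 libraries. Per kilobase of exon, the mean over the 13 libraries was highest for Vpreb3 at 76.1 CPM per kb, followed by Cd79b at 51.3 and Cd79a at 43.8. Igll1 at 15.5 and Vpreb1 at 14.4 CPM per kb came next. Rag2 at 0.858, Pax5 at 0.707 and Rag1 at 0.492 CPM per kb were the lowest. The precursor-restricted genes thus stood at both ends of this order.

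**Figure D1:**
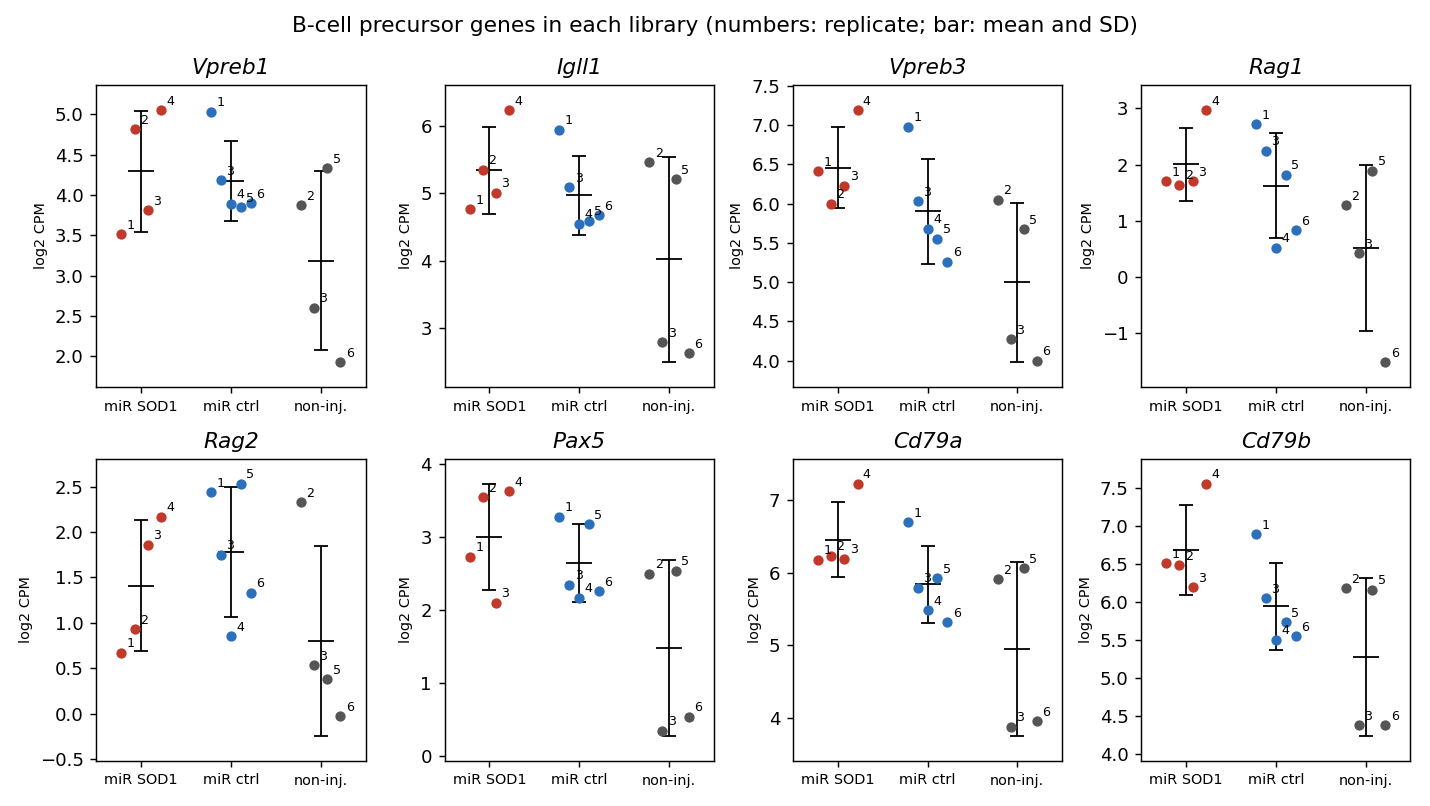
Level of each of the 8 genes by library in log2 CPM (vertical axes, separate scale per gene), in the AAV-miR SOD1 (red, n = 4), AAV-miR ctrl (blue, n = 5) and non-injected (grey, n = 4) groups. Points are libraries with their replicate number, long bars are group means and short bars 1 SD; AAV-miR SOD1 replicate 4 and AAV-miR ctrl replicate 1 stand high and non-injected replicates 3 and 6 low in nearly every panel.

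Vpreb1 encodes the V-like part of the surrogate light chain. In the AAV-miR SOD1 group, replicates 1, 2, 3 and 4 had 11.3, 28, 13.9 and 33.1 CPM of Vpreb1. AAV-miR ctrl replicates 1, 3, 4, 5 and 6 had 32.6, 18.1, 14.8, 14.3 and 14.9 CPM, and non-injected replicates 2, 3, 5 and 6 had 14.6, 5.98, 20 and 3.73 CPM. Vpreb1 was high in AAV-miR SOD1 replicates 2 and 4 and AAV-miR ctrl replicate 1, low in non-injected replicates 3 and 6, and the 3 groups overlapped. The edgeR log2 fold change of AAV-miR SOD1 was 0.19 ± 0.47 (SE) against AAV-miR ctrl and 0.96 ± 0.50 (SE) against non-injected, and that of AAV-miR ctrl against non-injected was 0.77 ± 0.48 (SE). Vpreb2, the close copy, was at 0.114 to 2.78 CPM, which was 0.019 to 0.125 of the Vpreb1 level in the same library. Top3b, which shares exonic bases with Vpreb1, was at 14.6 to 29.6 CPM and did not reach the lows of Vpreb1 in any library.

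Igll1 encodes lambda5, the constant-like part of the surrogate light chain. AAV-miR SOD1 replicates 1, 2, 3 and 4 had 27, 40.7, 32.1 and 75.2 CPM of Igll1. AAV-miR ctrl replicates 1, 3, 4, 5 and 6 had 61.5, 34, 23.3, 24.1 and 25.3 CPM, and non-injected replicates 2, 3, 5 and 6 had 43.8, 6.83, 37.1 and 6.11 CPM. By the labels, the non-injected group was split, with 2 libraries inside the range of the injected mice and 2 below every injected mouse. Replicate 3, 1 of those below, has a contradicting header. The log2 fold change of Igll1 was 0.38 ± 0.55 (SE) against AAV-miR ctrl and 0.90 ± 0.59 (SE) against non-injected, and 0.52 ± 0.56 (SE) between the control groups. Vpreb1 and Igll1 kept a ratio of 0.333 to 0.875 across the 13 libraries (0.555 ± 0.138, SD).

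Vpreb3 encodes a small protein that associates with immunoglobulin chains in the endoplasmic reticulum of pre-B cells. AAV-miR SOD1 replicates 1, 2, 3 and 4 had 85, 64.1, 74.8 and 146 CPM of Vpreb3. AAV-miR ctrl replicates 1, 3, 4, 5 and 6 had 126, 65.1, 51.1, 46.9 and 38.1 CPM, and non-injected replicates 2, 3, 5 and 6 had 66.2, 19.2, 50.7 and 16 CPM. The lowest AAV-miR SOD1 library lay just under the highest non-injected one, so these groups overlapped by 1 library each way. The log2 fold change of Vpreb3 was 0.50 ± 0.44 (SE) against AAV-miR ctrl and 1.28 ± 0.48 (SE) against non-injected, and 0.78 ± 0.45 (SE) between the control groups.

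Rag1 and Rag2 encode the recombinase and had the lowest mean CPM of the 8 genes, with 9 to 147 counts of Rag1 and 23 to 216 counts of Rag2 per library. Rag1 was at 3.16, 3.02, 3.17 and 7.78 CPM in AAV-miR SOD1 replicates 1 to 4, and at 6.5, 4.67, 1.35, 3.44 and 1.69 CPM in AAV-miR ctrl replicates 1, 3, 4, 5 and 6. In non-injected replicates 2, 3, 5 and 6 it was at 2.35, 1.25, 3.62 and 0.268 CPM. The last value rests on 9 counts, 0.252 CPM before scaling, with an exact 95% binomial interval of 0.115 to 0.477 that covers counting error only. Rag1 was 29-fold higher in its highest than in its lowest library, the widest range of the 8 genes. Rag2 was at 1.51, 1.82, 3.55 and 4.42 CPM in AAV-miR SOD1 replicates 1 to 4, at 5.35, 3.28, 1.72, 5.68 and 2.44 CPM in AAV-miR ctrl replicates 1, 3, 4, 5 and 6, and at 4.94, 1.37, 1.22 and 0.894 CPM in non-injected replicates 2, 3, 5 and 6. The groups overlapped for both genes.

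The order of the groups was not the same for both recombinase subunits. Group means of Rag1 were 4.28 ± 2.33 (SD, n = 4), 3.53 ± 2.14 (SD, n = 5) and 1.87 ± 1.44 CPM (SD, n = 4) in AAV-miR SOD1, AAV-miR ctrl and non-injected mice. Those of Rag2 were 2.83 ± 1.39 (SD, n = 4), 3.69 ± 1.75 (SD, n = 5) and 2.11 ± 1.90 CPM (SD, n = 4). Rag2 was the 1 gene of the 8 with a higher mean in AAV-miR ctrl than in AAV-miR SOD1, and its log2 fold change was -0.39 ± 0.56 (SE). Against non-injected mice the log2 fold change of AAV-miR SOD1 was 1.18 ± 0.68 (SE) for Rag1 and 0.43 ± 0.59 (SE) for Rag2. AAV-miR ctrl differed from non-injected by 0.91 ± 0.65 (SE) for Rag1 and 0.82 ± 0.56 (SE) for Rag2. The ratio of Rag1 to Rag2 ran from 0.3 in non-injected replicate 6 to 2.96 in non-injected replicate 5, against 0.879 to 1.42 for that of Cd79b to Cd79a. For both genes, neighbouring group means differed by less than the larger SD of the pair.

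Pax5 encodes the factor of B-lineage commitment. Pax5 was at 6.54, 11.6, 4.22 and 12.3 CPM in AAV-miR SOD1 replicates 1 to 4, and at 9.63, 5.01, 4.42, 8.96 and 4.71 CPM in AAV-miR ctrl replicates 1, 3, 4, 5 and 6. In non-injected replicates 2, 3, 5 and 6 it was at 5.58, 1.2, 5.74 and 1.37 CPM. By the labels, non-injected replicates 3 and 6 were again below every injected mouse, while the other 2 lay within the injected range. With the headers exchanged, replicate 3 would count as injected, and replicate 6 would no longer lie below every injected mouse. The log2 fold change of Pax5 was 0.40 ± 0.50 (SE) against AAV-miR ctrl, 1.31 ± 0.54 (SE) against non-injected and 0.91 ± 0.52 (SE) between the control groups.

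Cd79a and Cd79b encode the signalling pair shared by the pre-B-cell receptor and the B-cell receptor. Cd79a was at 72.3, 74.8, 72.9 and 149 CPM in AAV-miR SOD1 replicates 1 to 4, and at 104, 55.4, 44.7, 60.4 and 39.8 CPM in AAV-miR ctrl replicates 1, 3, 4, 5 and 6. In non-injected replicates 2, 3, 5 and 6 it was at 60.2, 14.6, 66.8 and 15.4 CPM. AAV-miR SOD1 replicates 1 to 3 were nearly equal, and all 4 of that group lay above all 4 non-injected libraries. The means were 92.2 ± 37.8 (SD, n = 4), 60.8 ± 25.3 (SD, n = 5) and 39.3 ± 28.1 CPM (SD, n = 4), with log2 fold changes of 0.60 ± 0.46 (SE) against AAV-miR ctrl, 1.23 ± 0.49 (SE) against non-injected and 0.63 ± 0.46 (SE) between the control groups.

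Cd79b was at 90.9, 88.9, 72.8 and 187 CPM in AAV-miR SOD1 replicates 1 to 4, and at 119, 66.1, 45.1, 53.1 and 46.7 CPM in AAV-miR ctrl replicates 1, 3, 4, 5 and 6. In non-injected replicates 2, 3, 5 and 6 it was at 72.7, 20.8, 71.3 and 20.8 CPM. The lowest AAV-miR SOD1 library, at 72.8 CPM, lay just above the highest non-injected library, at 72.7 CPM, so that the groups were barely apart. The log2 fold change of Cd79b was 0.74 ± 0.44 (SE) against AAV-miR ctrl, 1.24 ± 0.47 (SE) against non-injected and 0.51 ± 0.45 (SE) between the control groups. The ratio of Cd79b to Cd79a was 1.16 ± 0.147 (SD, n = 13), with the smallest coefficient of variation, 12.6%, of the ratios computed here. Vpreb3 stood at 1.04 ± 0.171 (SD, n = 13) of Cd79a and Igll1 at 0.521 ± 0.106 (SD, n = 13).

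Across the 13 libraries, 4 stood at the ends of the order for nearly all 8 genes. AAV-miR ctrl replicate 1 was among the 3 highest libraries for 8 of 8 genes and AAV-miR SOD1 replicate 4 for 7 of 8. Non-injected replicates 3 and 6 were among the 3 lowest for 8 of 8. The order of other libraries differed between genes: AAV-miR SOD1 replicate 1 ranked 3 of 13 for Cd79b and Vpreb3 but 11 for Vpreb1, and non-injected replicate 5 ranked 4 for Rag1 and 12 for Rag2. The mean z score of the 8 genes, each scaled to its SD over the 13 libraries, was 0.13, 0.46, 0.23 and 1.38 in AAV-miR SOD1 replicates 1 to 4 and 1.12, 0.26, -0.34, 0.23 and -0.29 in AAV-miR ctrl replicates 1, 3, 4, 5 and 6. It was 0.30, -1.58, 0.09 and -1.99 in non-injected replicates 2, 3, 5 and 6. By the labels, the range within the non-injected group was therefore wider than that within either injected group. With the 2 libraries of contradicting headers exchanged, scores ran from -1.58 to 1.12 in AAV-miR ctrl and from -1.99 to 0.30 in non-injected mice. The wider range was then in AAV-miR ctrl. The 2 highest libraries came from different groups. In libraries of pooled cells such as these, more cells of a type and more RNA per cell cannot be told apart.

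Taken as a list, the 8 genes had a median log2 fold change of 0.39 for AAV-miR SOD1 against AAV-miR ctrl, where the median of all 17403 genes tested was -0.04. The quasi-likelihood test of edgeR gave an adjusted p under 0.05 to 0 of 8 genes and to 0% of all genes. An unadjusted p under 0.05 went to 0 of 8, against 14.5% of all genes (5.99% higher and 8.54% lower). In 0 of 8 the groups did not overlap, against 3.73% of all genes. This median was 0.08 without AAV-miR SOD1 replicate 4 and 0.66 without AAV-miR ctrl replicate 1, the 2 highest libraries. The median log2 fold change against non-injected mice was 1.21, beside -0.09 for all genes. Here 0 of 8 genes had an adjusted p under 0.05 (0% of all genes), and 4 of 8, Vpreb3, Pax5, Cd79a and Cd79b, an unadjusted one (20.9% of all genes, 9.36% higher and 11.5% lower). The groups did not overlap for Cd79a and Cd79b, 2 of 8, against 11.7% of all genes. The count of 4 was 0 without AAV-miR SOD1 replicate 4, without non-injected replicate 3 or without non-injected replicate 6, with medians of 0.79, 0.98 and 0.89. It was 7 without non-injected replicate 2 and 6 without non-injected replicate 5. Since the genes were chosen on these differences, nothing is read from these counts.

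AAV-miR ctrl against non-injected isolates injection and control virus from the microRNA. The 8 genes had a median log2 fold change of 0.78 here, beside -0.01 for all genes, and all 8 values were above 0. An adjusted p under 0.05 in edgeR's test was found for 0 of 8 (0% of all genes), an unadjusted one for 0 of 8 (3.61% of all genes, 1.38% higher and 2.24% lower), and groups without overlap for 0 of 8 (0.816% of all genes). With the 2 libraries of contradicting headers exchanged, the median was 0.14, and the values of Cd79b and Igll1 turned to -0.02 and -0.10. Non-injected replicate 3, 1 of the 2 lowest libraries, is 1 of those exchanged. The exchange gave 0.77 for the median of AAV-miR SOD1 against non-injected. DESeq2 made 180, 1025 and 2 calls at an adjusted p under 0.05 over all genes in these 3 comparisons, in the order given, which were 1.2%, 7.16% and 0.0115% of the genes to which it gave an adjusted p, and none of the 8 genes was among them. Its unadjusted p was under 0.05 for 0, 5 and 0 of the 8, against 16.7%, 23.1% and 4.36% of all genes with a p. Of the B-lineage lists described below, DESeq2 gave an adjusted p under 0.05 for 3 mature B-cell genes, 2 other early lymphoid genes, 1 transcription factor, 1 receptor signalling gene and 1 recombination factor, all against non-injected and none in the other comparisons. Comparisons that share a group share its libraries, so the 3 are not independent of each other. The p-values measure the spread between single mice, 1 library each.

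The precursor-restricted genes were set beside 15 genes of mature B cells, which include the surface proteins Ms4a1 (CD20), Cr2 and Fcer2a (CD23), the BAFF family receptors Tnfrsf13b and Tnfrsf13c, and Ighd. Summed over Vpreb1, Igll1, Vpreb3, Rag1 and Rag2, the precursor level was 128, 138, 128 and 266 CPM in AAV-miR SOD1 replicates 1 to 4 and 232, 125, 92.3, 94.4 and 82.5 CPM in AAV-miR ctrl replicates 1, 3, 4, 5 and 6. It was 132, 34.7, 113 and 27 CPM in non-injected replicates 2, 3, 5 and 6. The summed mature level was 149, 191, 126 and 213 CPM, 174, 110, 61, 102 and 63.1 CPM, and 117, 42.3, 106 and 40.8 CPM in the same order. Both sums were therefore highest in AAV-miR SOD1 replicate 4 and lowest in non-injected replicate 6.

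**Figure D2:**
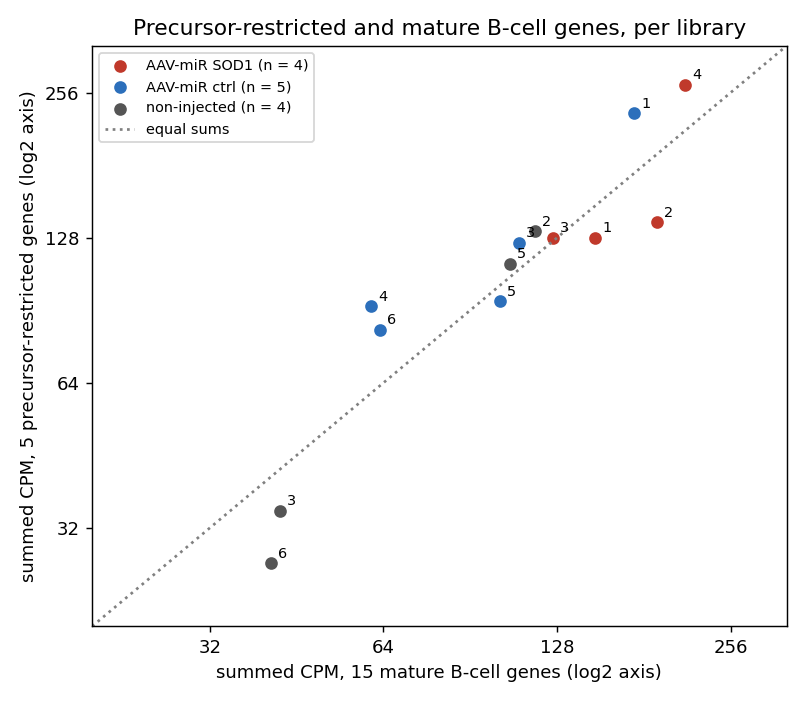
Summed CPM of the 5 precursor-restricted genes (vertical, log2 axis) against summed CPM of 15 mature B-cell genes (horizontal, log2 axis), 1 point per library with its replicate number; the dotted line marks equal sums. Libraries run along the line from non-injected replicates 6 and 3 at the lower left to AAV-miR SOD1 replicate 4 at the upper right, with ratios of 0.661 to 1.51.

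The ratio of the precursor to the mature sum moved less than either sum. It was 0.858, 0.72, 1.01 and 1.25 in AAV-miR SOD1 replicates 1 to 4, 1.34, 1.14, 1.51, 0.926 and 1.31 in AAV-miR ctrl replicates 1, 3, 4, 5 and 6, and 1.13, 0.821, 1.07 and 0.661 in non-injected replicates 2, 3, 5 and 6. The means were 0.959 ± 0.226 (SD, n = 4), 1.24 ± 0.222 (SD, n = 5) and 0.92 ± 0.218 (SD, n = 4), and the groups overlapped. Over the 13 libraries this ratio spanned 2.29-fold. The precursor sum ran from 27 to 266 CPM and the mature sum from 40.8 to 213 CPM. Taken singly, the 8 genes spanned 6.35-fold (Rag2) to 29-fold (Rag1). Vpreb3 weighs most in the precursor sum, with a mean of 65.3 CPM beside 122 CPM for the sum. Its ratio to Cd79a, which mature B cells also use, had a coefficient of variation of 16.4%. That of Igll1 was 20.3%, Vpreb1 27%, and Rag1 and Rag2, at low counts, 38.5% and 49.7%. The ratio of the sums thus rests most on Vpreb3, and whether precursors alone made Vpreb3 was not tested. Precursor and mature genes were present together in all 13 libraries, so that the label of precursor genes describes the genes and does not describe a pure population.

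Among the mature genes, those of highest mean level were Ms4a1, Tnfrsf13b, Cd72 and Tnfrsf13c. Ms4a1 was at 32.5 ± 11.4 (SD, n = 4), 21.3 ± 8.12 (SD, n = 5) and 12 ± 8.81 CPM (SD, n = 4) in AAV-miR SOD1, AAV-miR ctrl and non-injected mice and stood at 0.178 to 0.456 of Cd79a. Fcer2a, picked after its values were seen, was far less even, at 0.00168 to 0.126 of Cd79a, with 1 count in AAV-miR ctrl replicate 4 and 197 in AAV-miR SOD1 replicate 2. Of the 14 mature genes tested, an unadjusted p under 0.05 in edgeR was found for 4 against AAV-miR ctrl (Bank1, Cr2, Fcer2a and H2-Ob), for 5 against non-injected (Fcmr, H2-Ob, Ighd, Ms4a1 and Tnfrsf13b) and for 0 between the control groups, all higher in AAV-miR SOD1. Over all genes, 5.99%, 9.36% and 1.38% had such a p and were higher. Adjusted p under 0.05 were found for 0 of 14 in each. The median log2 fold changes were 0.81, 1.13 and 0.24, beside 0.27, 0.96 and 0.78 for the 5 precursor-restricted genes and 0.39, 1.21 and 0.78 for all 8. Whether the lists differ in these medians was not tested.

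Plasma cell and immunoglobulin genes were uneven in how they varied with the 8 genes. Pearson's r with the mean z score ran from -0.50 (Xbp1) to 0.81 (Mzb1) among the plasma cell genes and from 0.03 (Iglc3) to 0.94 (Ighm) among the immunoglobulin constant genes. Jchain, the joining chain of secreted IgM and IgA, was at 38.7 to 985 CPM, and its ratio to Cd79a ran from 0.64 in AAV-miR ctrl replicate 5 to 31.1 in non-injected replicate 6. Non-injected replicate 6 had 481 CPM of Jchain and 1730 CPM of Igkc, the kappa light chain, although it had the lowest or the second lowest level of each of the 8 genes. Ighm, the mu heavy chain that pairs with the surrogate light chain, was at 195 to 663 CPM in the 13 libraries. Of 6 plasma cell genes 0, 1 and 0 had an unadjusted p under 0.05 in edgeR in the 3 comparisons, which are always given in the order AAV-miR SOD1 against control virus, AAV-miR SOD1 against no injection and control virus against no injection. Of 5 immunoglobulin constant genes 0, 3 and 1 did, against 14.5%, 20.9% and 3.61% of all genes, and none in either list had an adjusted one.

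Other genes of the early lymphoid stage did not all share the pattern. Dntt, the polymerase that adds bases at V(D)J joints, was at 25.9 ± 16 (SD, n = 4), 17.5 ± 8.86 (SD, n = 5) and 13.8 ± 9.80 CPM (SD, n = 4), and its r with the 8 genes was 0.89. Cd24a, a surface protein of precursors and of many other cells, was at 998 ± 295 (SD, n = 4), 553 ± 81.2 (SD, n = 5) and 586 ± 193 CPM (SD, n = 4). Flt3, the receptor of early progenitors that is shut off on commitment, ran the other way, at 25.7 ± 8.58 (SD, n = 4), 44.8 ± 18.3 (SD, n = 5) and 56.8 ± 23.8 CPM (SD, n = 4), with r of -0.58. It was highest in non-injected replicate 3, at 90.4 CPM, and lowest in AAV-miR SOD1 replicate 3, at 16.9 CPM. These libraries also had the highest and the lowest sum of motoneuron markers. Which cells made Flt3 was not tested. Of the 11 genes of this list, 3 had an unadjusted p under 0.05 in edgeR against AAV-miR ctrl (Cd24a and Myb higher, Flt3 lower), 4 against non-injected (Il7r in addition, higher) and 0 between the control groups. Of all genes, 14.5%, 20.9% and 3.61% had such a p. An adjusted p under 0.05 was found for 0 of 11 in each, and the median log2 fold changes were 0.57, 0.77 and 0.16.

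Of 12 B-lineage transcription factors, 3, 8 and 0 had an unadjusted p under 0.05 in edgeR for the same comparisons, all higher (all genes: 5.99%, 9.36% and 1.38% higher), and 0 an adjusted one. Their median log2 fold changes were 0.73, 1.00 and 0.27. Ebf1, which acts with PAX5 at the start of the lineage, was at 44.2 ± 9.02 (SD, n = 4), 46.3 ± 15 (SD, n = 5) and 32.7 ± 12.3 CPM (SD, n = 4), and its log2 fold change against AAV-miR ctrl was -0.06 ± 0.31 (SE). Tcf3, which encodes the E2A proteins, ran from 10.1 to 115 CPM, and its r with the 8 genes was 0.08. Spi1, shared with myeloid cells, had r of -0.07 with the 8 genes, and Spib, a relative of Spi1 used in B cells, 0.96.

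Of 12 genes that carry the signal of the pre-B-cell and B-cell receptors, 1, 8 and 0 had an unadjusted p under 0.05 in edgeR, all higher, beside 5.99%, 9.36% and 1.38% of all genes, and 0 an adjusted one. Their median log2 fold changes were 0.65, 0.97 and 0.37. The kinases Lyn and Syk were at 84.9 ± 28.1 and 68.3 ± 23.2 CPM (SD, n = 4) in AAV-miR SOD1, 54.5 ± 34.1 and 43.0 ± 17.1 CPM (SD, n = 5) in AAV-miR ctrl and 40.2 ± 14.1 and 38.4 ± 14.4 CPM (SD, n = 4) in non-injected mice. Myeloid cells also use both kinases. Of 9 factors that repair or assist the RAG breaks, 2, 3 and 0 had an unadjusted p under 0.05 in edgeR (14.5%, 20.9% and 3.61% of all genes in either direction) and 0 an adjusted one. Hmgb1 and Hmgb2, which bend DNA for the recombinase and serve in most cells, were those against AAV-miR ctrl, while Xrcc5 and Xrcc6, the Ku proteins of end joining, were at -0.25 ± 0.18 (SE) and 0.19 ± 0.23 (SE) on the log2 scale there.

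The genes most like the 8, by Pearson's r between their log2 CPM and the mean z score over the 13 libraries, included Spib (0.965), Ly6d (0.961), Fcrla (0.941), Ighm (0.935), Ms4a1 (0.929), Mir142hg (0.925), Ptprcap (0.924), Pou2af1 (0.924) and Blk (0.922). The points share their libraries, depth and scaling, and no p is given. The median r of all genes was -0.05.

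**Figure D3:**
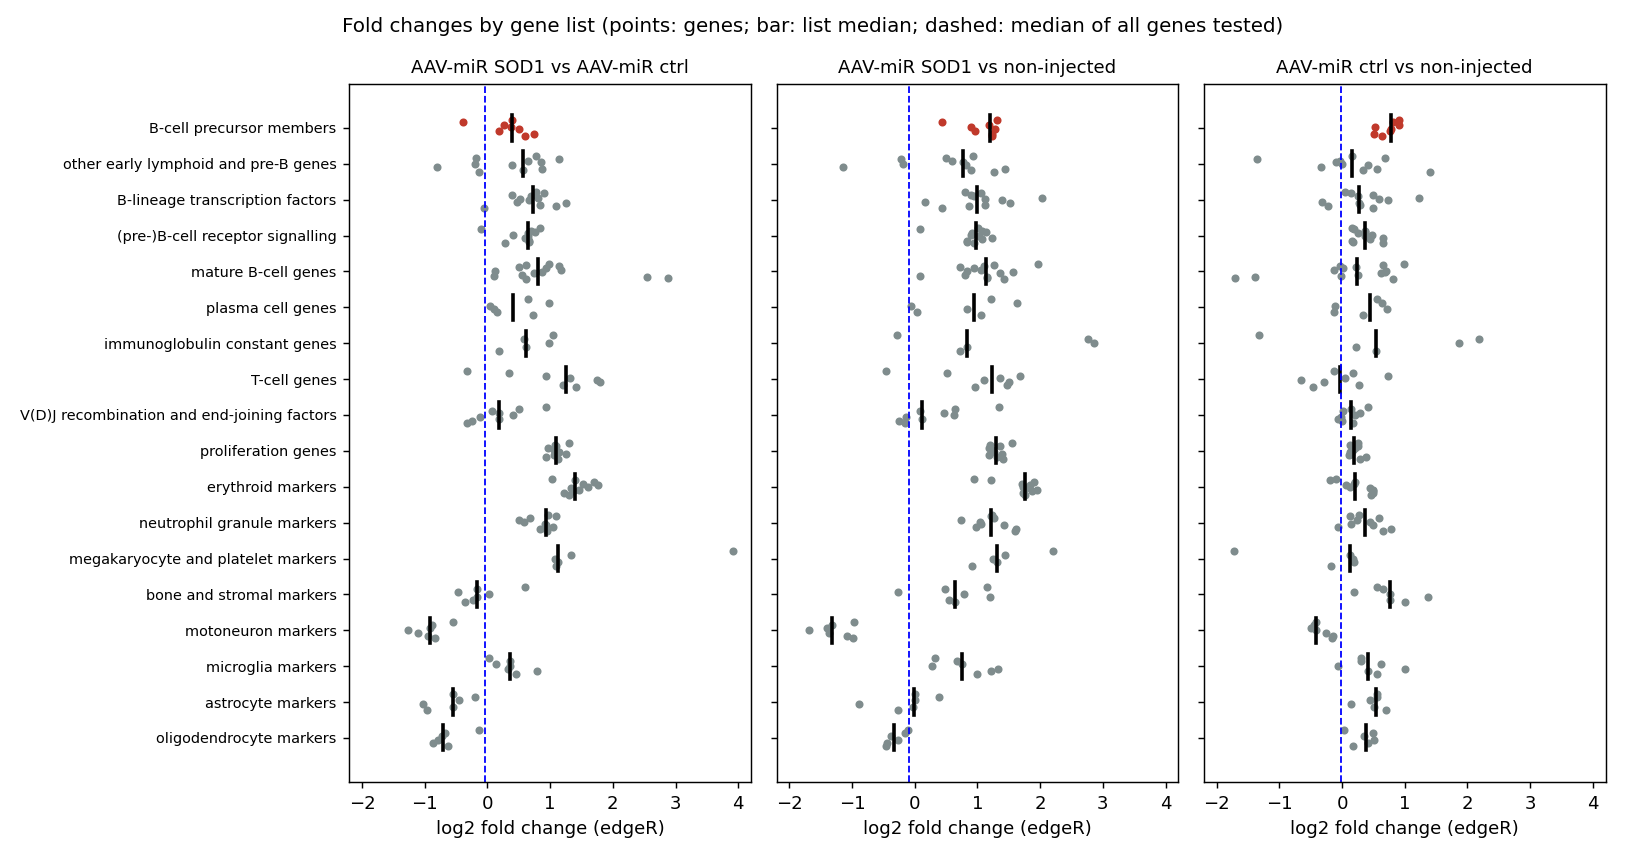
EdgeR log2 fold change of each gene (points) by gene list in the 3 comparisons, with the list median (black bar) and the median of all genes tested (dashed line). The 8 precursor genes (red) have medians of 0.39, 1.21 and 0.78, the erythroid markers 1.40, 1.76 and 0.20, and the motoneuron markers -0.91, -1.32 and -0.42.

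Markers of other cells moved across the same libraries, and their part in the levels above was not tested. The 11 erythroid markers, led by the globins, summed to 21392 to 48662 CPM in AAV-miR SOD1, 3795 to 28562 CPM in AAV-miR ctrl and 5783 to 20565 CPM in non-injected mice, and none was at 0 in any library. An unadjusted p under 0.05 in edgeR was found for 11, 11 and 0 of 11, all higher. The 10 neutrophil granule markers summed to 30259 to 83548, 10933 to 70177 and 15734 to 24501 CPM, with 3, 7 and 0 of 10 at an unadjusted p under 0.05 in edgeR, all higher. The 10 proliferation genes summed to between 362 and 1994 CPM, with 10, 10 and 0 of 10, all higher. The share of all genes that were higher at that p was 5.99%, 9.36% and 1.38%. The proliferation genes' median log2 fold changes were 1.09, 1.29 and 0.19, and all dividing cells use these genes. EdgeR gave an adjusted p under 0.05 for 0 genes of these 3 lists, as for 0% of all genes. DESeq2 gave one for 3 erythroid and 2 proliferation genes against AAV-miR ctrl, and for 9 erythroid, 8 proliferation and 1 neutrophil gene against non-injected. Of all genes to which DESeq2 gave an adjusted p, 1.2% and 7.16% had one under 0.05 in these comparisons.

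The ranks of a library by the mean z score of the 8 genes and by the erythroid sum were at most 3 places apart in 11 of 13 libraries. AAV-miR SOD1 replicate 1 was an exception, with the highest erythroid sum and rank 8 by the 8 genes. AAV-miR ctrl replicate 5 was the other, with the lowest erythroid sum and rank 6. This cut of 3 places was applied to the erythroid sum alone, and no reference for unrelated ranks was computed. The median r with the 8 genes was 0.62 for erythroid, 0.50 for neutrophil, 0.65 for proliferation and 0.12 for megakaryocyte markers. For 7 microglia markers the median was 0.71, with values from -0.01 for P2ry12 to 0.80 for Aif1. These markers did not all move together: AAV-miR ctrl replicate 5 had the highest Tmem119, 115 CPM, and the lowest P2ry12, 0.5 CPM. Whether microglia or other cells made these transcripts was not tested. The median r was 0.75 for 7 bone and stromal markers. Their values ran from 0.11 for Spp1 to 0.89 for Cxcl12, a chemokine of marrow stroma. Spp1, at a mean of 5136 CPM, was the 1 marker of these 7 with a log2 fold change below 0 against non-injected, at -0.27. Which cells made Spp1 was not tested. The bone and stromal markers summed to 9302 to 43120 CPM over the 13 libraries, with median log2 fold changes of -0.17, 0.65 and 0.77 in the 3 comparisons. Of these 7 markers, 0, 1 and 1 had an unadjusted p under 0.05 in edgeR, and of 5 megakaryocyte markers 1, 0 and 0, while 14.5%, 20.9% and 3.61% of all genes did.

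**Figure D4:**
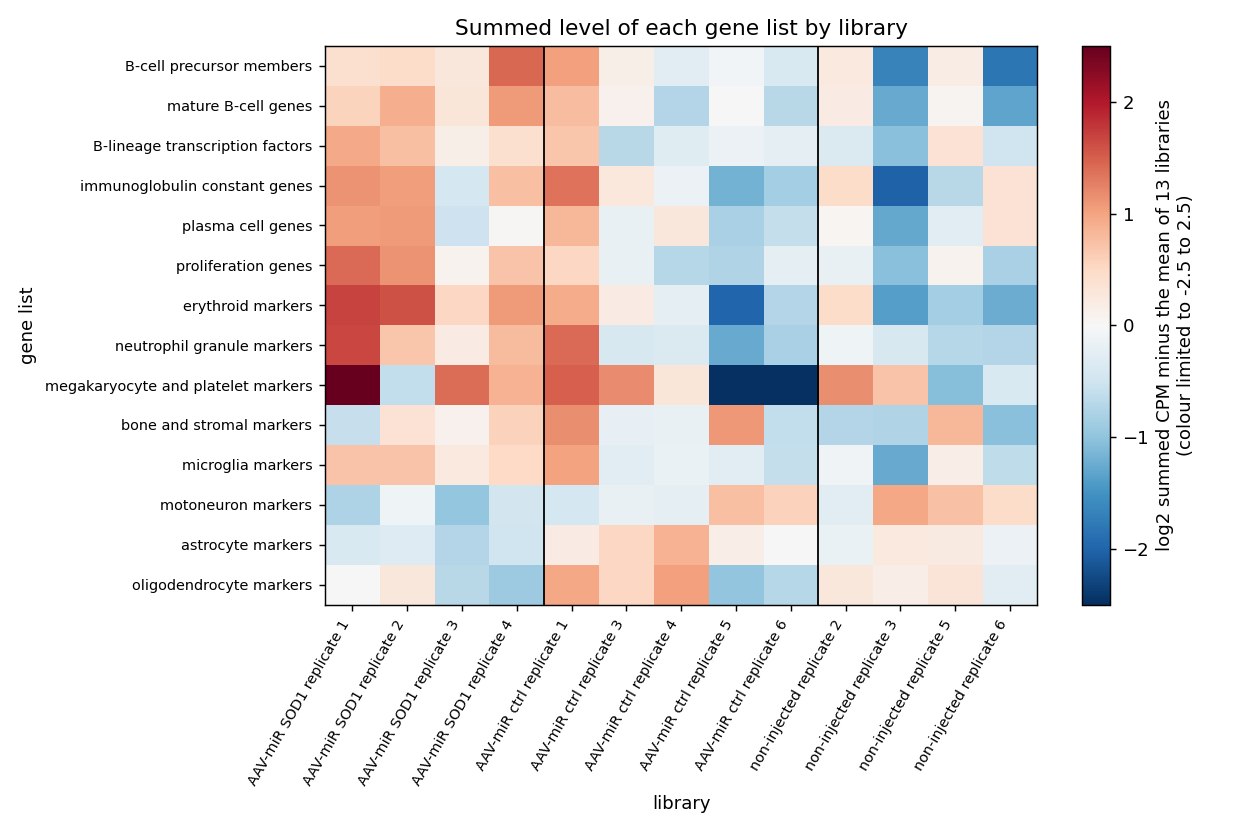
Summed level of each gene list (rows) in each library (columns), as log2 summed CPM minus the mean over the 13 libraries, with the colour scale capped as its bar shows. The top line, the 8 precursor genes, is darkest red in AAV-miR SOD1 replicate 4 and darkest blue in non-injected replicates 3 and 6, where the motoneuron markers are above their mean.

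Markers of the captured cells ran against the 8 genes. The 7 motoneuron markers, among them Nefh, Prph and the acetylcholine transporter Slc18a3, summed to 1376 to 2498 CPM in AAV-miR SOD1, 2000 to 4537 CPM in AAV-miR ctrl and 2221 to 5269 CPM in non-injected mice. Their median r with the 8 genes was -0.57, and 5, 7 and 0 of 7 had an unadjusted p under 0.05 in edgeR, all lower (8.54%, 11.5% and 2.24% of all genes were lower at that p), with 0 adjusted. DESeq2 gave an adjusted p under 0.05 for 6 of 7 against non-injected and 0 of 7 in the other comparisons. Against non-injected, 7.16% of all genes to which it gave an adjusted p had one under 0.05. Non-injected replicate 3 had the highest motoneuron sum and the second lowest z score of the 8 genes. AAV-miR SOD1 replicate 3 had the lowest motoneuron sum, yet ranked 7 of 13 by the 8 genes. Astrocyte and oligodendrocyte markers had a median r of -0.05 and 0.04. CPM are shares of a library, so the levels of different lists are not independent of each other. The 8 genes summed to 64.5 to 614 CPM. Why the motoneuron markers ran against them was not tested.

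T-cell genes were also present. Lck, a kinase of T cells, was at 14.2 ± 1.66 (SD, n = 4), 5.67 ± 1.76 (SD, n = 5) and 5.50 ± 3.61 CPM (SD, n = 4) in AAV-miR SOD1, AAV-miR ctrl and non-injected mice. Of 8 T-cell genes, 4, 3 and 0 had an unadjusted p under 0.05 in edgeR, all higher (5.99%, 9.36% and 1.38% of all genes were), and 0 an adjusted one. DESeq2 gave an adjusted p under 0.05 for 2 of them against non-injected, beside 7.16% of all genes to which it gave an adjusted p. Thy1, which neurons also make, was the most abundant of the 8 T-cell genes at 173 to 541 CPM. The median r of the list with the 8 precursor genes was 0.49.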

How the data were processed

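RNA of laser-captured motoneurons was amplified with a low-input full-length cDNA kit and tagmented into libraries, per the labels' protocols. The authors deposited raw read counts per Ensembl gene, 1 table per library. The submitters' processing notes name cutadapt 1.8, STAR 2.5.2b, HTSeq 0.6.1 and GRCm38; the annotation release and strand setting are not given in the sources used here. The 5 summary lines of each table, 47.0% to 61.6% of its total and mostly reads aligned to several places, were left out. GENCODE M21 named 48349 of 48709 identifiers, and 0 pairs of tables were identical.

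Genes were kept by filterByExpr (minimum count 10, minimum total count 15), which left 17403. Counts of all 13 libraries in 3 groups were fitted with edgeR 4.0.16 (R 4.3.3, TMM scaling, quasi-likelihood test, Benjamini-Hochberg adjustment over all genes, threshold 0.05); the common biological coefficient of variation was 0.47. The fits were also run on simulated counts, and nothing above rests on the outcome. The SE of a log2 fold change was its size over the square root of the F statistic. Alternatives were RLE scaling, no filter on low counts, DESeq2 1.42.0, limma-voom with quality weights (limma 3.58.1), the replicate number as a block, the libraries numbered 1 to 4, the header exchange and leaving out each library.

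The 8 genes and all lists were chosen with earlier results of these data known. All 8 are reported whatever their values. From each other list at most the 4 genes of highest mean CPM get values, beside counts and the median; exceptions are Fcer2a, named after its values were seen, Vpreb2 and Top3b, which share sequence with Vpreb1, the genes that passed the unadjusted p, and those at the ends of a list's range of r. The 10 genes most correlated with the mean z score were listed, of which 1 is not reported here. Of 12 erythroid markers listed, Ahsp was not matched. Ccr6 did not pass the filter. Motifs were searched in RefSeq promoters of GRCm38.p6, and Vpreb reading frames come from GENCODE M21 transcripts.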

Additional observations from a re-analysis of the deposited data

Results flagged for a closer look

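For the 8 genes and the summed lists, the highest and lowest library of each group were examined by setting the gap to the nearest library against the range of that group. Of 33 groups of values, 5 had a library far from the rest. For independent groups chance gives about 1 in 20, but these groups overlap and hold genes chosen on these data. The 5 are therefore not set against that share. Genes were examined in log2 CPM, while the sums and their ratio were examined unlogged, which can change which libraries are flagged. In AAV-miR SOD1 replicate 4, Cd79a was at 7.22 log2 CPM, with the next library at 6.23. In the same library Rag1 was at 2.97 log2 CPM, with the next at 1.70, and the summed level of the 5 precursor-restricted genes was 266 CPM, with the next at 138. In AAV-miR ctrl replicate 1, Vpreb1 was at 5.03 log2 CPM, with the next library at 4.18. The summed precursor level of that library was 232 CPM, with the next at 125. The genes share their libraries, so these 5 results rest on 2 mice.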

How the results depend on the processing

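Each comparison was recomputed under 20 alternatives. EdgeR and limma-voom called 0 genes at an adjusted p under 0.05 in every one of them, and DESeq2 called 180, 1025 and 2 in the order used throughout (AAV-miR SOD1 against control virus, the same against no injection, control virus against no injection); the cause was not tested. The median log2 fold change of the 8 genes stayed above 0 in all, from 0.07 to 0.66, from 0.77 to 1.64 and from 0.14 to 1.06. Leaving out each library in turn gave 0.08 to 0.66, 0.79 to 1.54 and 0.44 to 1.06, with 0 genes called throughout. With the replicate number as a block the medians were 0.07, 0.99 and 1.01, and 0 genes were called. The numbers do not pair the samples: deviations of 8 same-numbered pairs correlated at -0.189 to 0.243, 3 of them over 0.1, and 3 of 13 libraries matched best with their own number. Within the libraries numbered 1 to 4 the medians were 0.16, 1.18 and 0.90. Against AAV-miR ctrl, Vpreb1 changed sign under 3 alternatives and Igll1 and Rag1 under 2 each; Rag2 did so against non-injected in the libraries numbered 1 to 4, at -0.16. Without non-injected replicate 2, Rag2 was at 1.35 and 1.69 for AAV-miR SOD1 and AAV-miR ctrl against non-injected. The count of the 8 genes with an unadjusted p under 0.05 ranged from 0 to 1, 0 to 7 and 0 to 3. Summed precursor CPM averaged 131 to 177 in AAV-miR SOD1, 98.6 to 136 in AAV-miR ctrl and 58.1 to 99.1 in non-injected mice, and summed mature CPM 156 to 185, 84 to 112 and 62.9 to 93.2. Low counts limit Rag1, at 9 in its lowest library, more than the other genes. That library, non-injected replicate 6, was not a shallow one, with 35.8 megacounts in genes.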
